A study of Homo sapiens with 4 samples.

Results

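The ends of polyadenylated transcripts, read by PAS-seq, were compared between 1 library of TE-1 cells given l-lactate and 1 library of TE-1 control cells. TE-1 is an established human esophageal squamous cell carcinoma (ESCC) line. These 2 libraries are part of a series of 4, the others being the same pair in the ESCC line KYSE30. The treated cells received 20 mM l-lactate for 24 h, and the control is labelled PBS. One label of the control names TE-3 as the line, whereas its title gives TE-1, which is used here. The KYSE30 control has the same kind of conflict (KYSE32 in 1 label), and its title was used as well. The libraries were joined on the identifier of each poly(A) site cluster (PAC). Of 17627 PACs in the series, 15408 were listed in at least 1 TE-1 library and 14287 in both. They fell in 10466 of the 11511 genes with a PAC, and 7728 of these genes reached a summed level of 10 TPM in at least 1 TE-1 library and were compared. TPM here is the tag count of a PAC scaled to a common library size, with no correction for transcript length.

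The 3′ end of most mRNAs is made by cleavage shortly after a hexamer, most often AAUAAA, followed by addition of a poly(A) tail. A gene with several such sites can end at a proximal PAS or a distal PAS (dPAS), which changes the length of its 3′ UTR, or within an intron, which shortens the coding sequence. Cleavage factor Im, made of NUDT21 with CPSF6 or CPSF7, binds UGUA and favours the dPAS. Lactate is the end product of glycolysis, is carried across the membrane by monocarboxylate transporters, and can modify lysines of proteins (lactylation).

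With 1 library per condition no spread between replicates exists, and no test between conditions was possible. Every interval below is a 95% counting interval, of tags, genes or PACs. It covers neither cultures, nor amplification, nor the limit under which a PAC goes unlisted. The l-lactate library held 8468958 tags and the control library 10393799, and they listed 14885 and 14810 PACs. Their TPM had a Spearman's rho of 0.980 over the 14287 shared PACs, which are not independent replicates. Among epithelial markers, the keratin genes KRT8 (969 TPM with l-lactate, 1004 in the control), KRT17 (187 and 245) and KRT18 (166 and 175) and the desmosomal gene DSP (306 and 257) were present. PERP (143 and 101) and EPCAM (36.4 and 30.7) were present too. The epithelial marker CDH1, however, was at only 1.30 TPM with l-lactate and 0 in the control. The squamous markers KRT5, KRT14, KRT6A, TP63 and SOX2 had no listed PAC in either TE-1 library. PTPRC, CD3E, LYZ, CD14, PECAM1, VWF, CDH5, COL1A2, COL3A1 and LUM were at 0 as well, and the remaining markers of fibroblasts and immune cells were at 15.2 TPM or less. In such bulk libraries a change in every cell cannot be told apart from a change in a share of the cells.

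Few genes changed their level. A gene was called when its TPM, with 1 TPM added, differed at least 1.5-fold between the TE-1 libraries. By this rule 109 of 7728 genes were higher with l-lactate (1.41%) and 59 were lower (0.763%). Only 10 of the higher and 2 of the lower genes reached 2-fold. The median log2 ratio was 0.04, and its 5th and 95th percentiles were -0.30 and 0.40. With this median set to 0, 89 genes were higher and 74 lower. The called genes were mostly weakly expressed: 105 of the 168 calls lay between 10 and 20 TPM, where 5.94% of 1767 genes were called, against 0.384% of the 1823 genes at 100 TPM or more. In each of the 168 the counting interval of the tag ratio left out 1. At the tag counts of the genes compared a 1.5-fold difference is enough for this, so it adds no support to the calls. Over all 7728 genes the interval lay above 1 in 1583 and below 1 in 968.

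**Figure D1:**
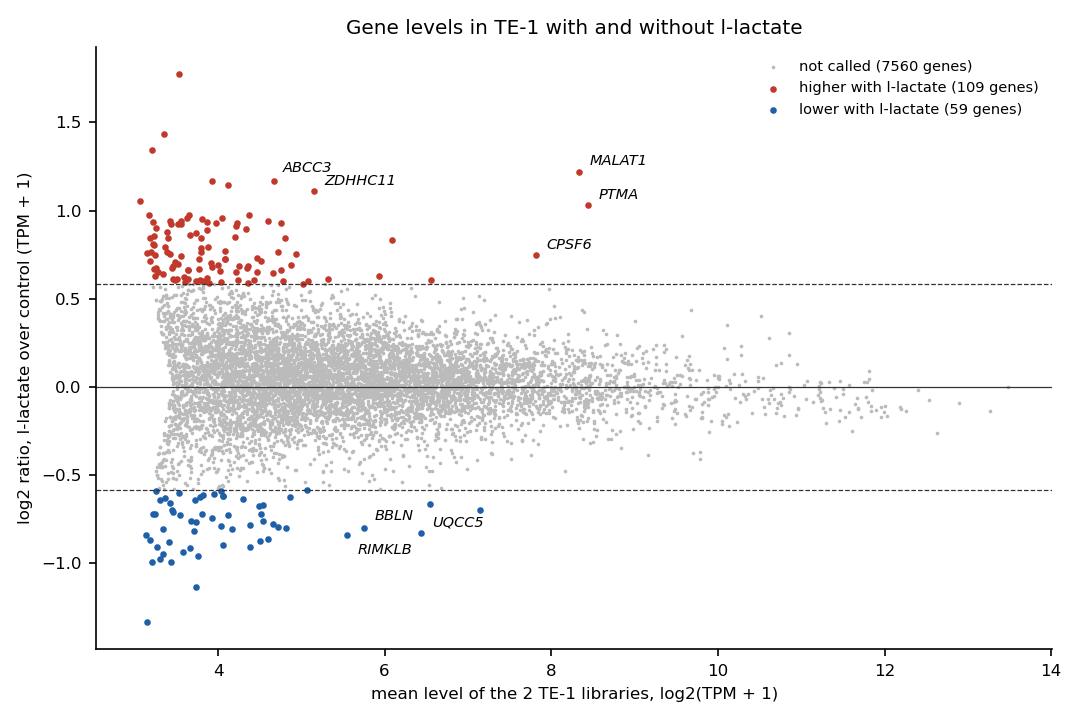
Each point is 1 of the 7728 genes compared, with its mean level in the TE-1 libraries on the x axis and its log2 ratio of l-lactate over control on the y axis; dashed lines mark 1.5-fold. The 109 higher (red) and 59 lower (blue) genes crowd at low levels, and MALAT1, PTMA and CPSF6 stand out among the abundant ones.

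Among genes of at least 20 TPM, the largest rise was that of MALAT1, an abundant nuclear noncoding RNA. It was at 451 TPM with l-lactate and 193 TPM in the control, a log2 ratio of 1.22 (1.15 to 1.30). With PACs that have a poly(A) hexamer alone, its log2 ratio was 0.29 and it was not called. PTMA, which encodes the acidic nuclear protein prothymosin alpha, was at 467 and 228 TPM, a log2 ratio of 1.03 (0.96 to 1.11), and it has processed pseudogenes that could share its reads. Both lie far above the level at which most calls were made.

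The other large rises came from genes of diverse function at 20 to 50 TPM. ABCC3, an exporter of organic anions, was at 34.4 and 14.7 TPM (log2 ratio 1.17). ANPEP, the membrane aminopeptidase N, was at 20.1 and 8.37 TPM (1.17). ATPSCKMT, a methyltransferase of the ATP synthase, was at 22.9 and 9.81 TPM (1.14). ZDHHC11, a member of the palmitoyltransferase family, was at 47.5 and 21.5 TPM (1.11), and its reads may be shared with the near-identical ZDHHC11B. The nuclear body and splicing genes COIL (26.4 and 13.0 TPM, 0.97) and RBM17 (34.5 and 17.6 TPM, 0.93) followed, with the lysosomal protease CTSD (20.8 and 10.2 TPM, 0.96). RHBDF2, a regulator of the sheddase ADAM17, was at 23.4 and 11.9 TPM (0.91), and OGFRL1 and the noncoding ENSG00000255031 rose by a similar ratio of 0.93 and 0.94.

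At 20 TPM or more, the largest falls were smaller than the largest rises. IQSEC2, an activator of ARF GTPases, was at 13.5 TPM with l-lactate and 26.2 TPM in the control, a log2 ratio of -0.91 (-1.29 to -0.64). UQCC5, an assembly factor of respiratory complex III, was at 61.5 and 110 TPM (-0.83, -0.99 to -0.69). RIMKLB, a ligase that joins glutamate to N-acetylaspartate, was at 32.5 and 59.1 TPM (-0.84), with its main 3′ UTR PAC at 23.4 against 39.8 TPM and its intronic PAC at 9.09 against 16.0 TPM. A weak further 3′ UTR PAC of RIMKLB was listed only in the control, at 3.27 TPM. GCAT, a mitochondrial enzyme of threonine breakdown, was at 14.4 and 25.5 TPM (-0.78). UFM1, a ubiquitin-like modifier, was at 18.3 and 32.5 TPM (-0.80), and BBLN at 38.3 and 67.4 TPM (-0.80). The rest of the 12 were LUZP2, ZDHHC24, ATP2A1-AS1, ZNF280D, CCDC85B and LRRC26, with log2 ratios between -0.90 and -0.78.

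The called genes differed from the genes compared in what they encode. Long noncoding RNAs made up 13 of the 59 lower genes (22.0%) and 11 of the 109 higher genes (10.1%), against 210 of all 7728 (2.72%). The called genes had a median level near 13.0 TPM, against 39.0 TPM over all genes, and the part of this difference in the noncoding share was not tested. The median transcript length was 3964 nt for the higher genes, 2437 nt for the lower genes and 3204 nt over all. Over 4 groups of genes of equal size, ordered from short to long annotated 3′ UTR, the median log2 ratio was -0.01, 0.04, 0.06 and 0.07. In KYSE30 cells the medians of the same groups all lay within 0.02 of 0.

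KYSE30, which shares no library with TE-1, served as a check. In that line 94 of 7887 genes were higher (1.19%) and 98 lower (1.24%) by the same rule. Of the 109 genes higher in TE-1, 73 were compared in KYSE30 and 46 had the same sign there (63.0%, 51.5% to 73.2%), whereas 51.8% of all genes compared in both lines were above 0. Of the 59 lower genes, 28 were compared in KYSE30 and 20 had the same sign (71.4%, 52.9% to 84.7%), whereas 48.1% of all genes were below 0. These intervals count genes as if independent, although all come from the same libraries. They do not measure how far further libraries would repeat the result. The same call was made in both lines for 9 higher and 2 lower genes.

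The genes higher in both lines included PTMA, which was at 335 and 218 TPM in KYSE30 (log2 ratio 0.62). MELTF, which encodes the surface protein melanotransferrin, was at 13.9 and 4.52 TPM in TE-1 (1.44) and 12.1 and 7.27 TPM in KYSE30 (0.67). The noncoding IGFL2-AS1 was at 12.3 and 4.23 TPM in TE-1 (1.34) and 23.8 and 7.54 TPM in KYSE30 (1.54). FBXO2, a substrate receptor of an SCF ubiquitin ligase that binds glycoproteins, had log2 ratios of 0.97 and 1.29. MAPK9, ZNF721, OGFRL1 and RBM17 were also higher in both lines. GCAT and TMEM276 were lower in both lines. ERBB3 and MALAT1 were called higher in TE-1 and lower in KYSE30.

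**Figure D2:**
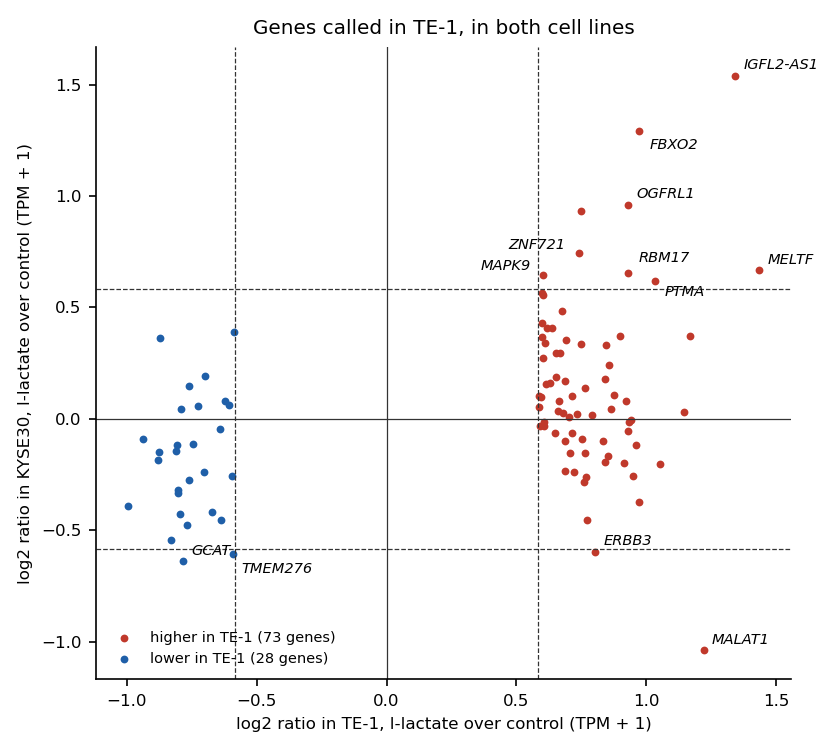
Each point is a gene called in TE-1 and also compared in KYSE30 (73 higher in TE-1 in red, 28 lower in blue), with the log2 ratio of l-lactate over control in TE-1 on the x axis and in KYSE30 on the y axis; dashed lines mark 1.5-fold. Named genes are among those called in both lines, and MALAT1 and ERBB3 lie in opposite directions.

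Genes of lactate handling and central metabolism changed little, as did most genes compared. Over all 7728 genes 1.41% were called higher and 0.763% lower, so these lists and those below would hold few calls at that share. Of 17 glycolysis genes none was higher and 1 was lower, the glucose transporter gene SLC2A3 (22.0 TPM with l-lactate, 34.4 TPM in the control, log2 ratio -0.63), and the median of the list was -0.06. LDHA, the dehydrogenase that makes lactate, was at 3641 and 3532 TPM, a log2 ratio of 0.04 (0.02 to 0.07). None of 7 genes of lactate and proton transport was called. SLC16A3, the monocarboxylate transporter MCT4, was at 20.8 and 14.9 TPM (0.45), while SLC16A1 (MCT1) was at 36.8 and 41.7 TPM (-0.17). None of the 24 genes of the tricarboxylic acid cycle and pyruvate use was called, nor any of 39 nuclear genes of oxidative phosphorylation, 26 of which lay below 0 (median -0.03). Of 16 HIF targets none was called, and VEGFA was at 21.7 and 14.9 TPM (0.51). The files listed no PAC for the 15 transcripts of the mitochondrial genome.

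Genes of cuproptosis and of lactylation were examined next. FDX1, the ferredoxin that carries electrons for lipoylation and reduces copper ionophores, was at 39.8 and 36.8 TPM (log2 ratio 0.11, -0.10 to 0.33). All FDX1 tags fell in 1 PAC, so that use of its proximal and distal sites could not be separated from PAC levels. Of 16 writers and erasers of lactylation, SIRT3, a mitochondrial deacylase, was lower at 7.2 and 14.7 TPM (-0.94), and 1 of its PACs was listed only in the control, at 3.46 TPM. HDAC2 was at 128 and 103 TPM (0.31, 0.19 to 0.44), and AARS1, the alanyl-tRNA synthetase, at 189 and 178 TPM (0.09, -0.01 to 0.18).

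Of 23 cleavage and polyadenylation factors only CPSF6 was called, at 283 TPM with l-lactate and 168 TPM in the control, a log2 ratio of 0.75 (0.66 to 0.84). In KYSE30 it was at 178 and 140 TPM (0.34). Its partners did not reach the call: CPSF7 was at 164 and 138 TPM (0.25) and NUDT21 at 96.8 and 100 TPM (-0.05, -0.19 to 0.08). The median of the list was 0.00.

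At the shares called over all genes, 1.41% higher and 0.763% lower, lists of this size hold few calls. Stress genes gave no call at all. This held for 17 genes of the integrated stress response (median log2 ratio 0.04), 16 of the unfolded protein response (0.12), 14 heat shock proteins (-0.01), 14 NRF2 targets (-0.02) and 3 genes of the metallothionein list (0.24). HSPA5, the chaperone of the endoplasmic reticulum, was at 1339 and 1142 TPM (0.23). The zinc exporter gene SLC30A1 came nearest to the call, at 68.8 and 47.6 TPM (0.52). Of 15 p53 targets none was called, and CDKN1A was at 13.7 and 19.7 TPM (-0.50). None of 20 cholesterol synthesis genes (median 0.09) or 12 fatty acid synthesis genes (0.02) was called. Among 12 genes of iron handling and ferroptosis, 9 lay above 0 with none called, and the transferrin receptor gene TFRC was at 384 and 286 TPM (0.42) and had a log2 ratio of 0.87 in KYSE30.

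Signalling genes gave scattered calls in both directions. Of 16 immediate early genes, IER3 was higher at 32.2 and 18.6 TPM (log2 ratio 0.76), while EGR1 (48.4 and 72.9 TPM, -0.58) and JUN (42.9 and 60.7 TPM, -0.49) fell short of the call. Of 18 interferon-stimulated genes, PSMB9, an immunoproteasome subunit, was higher at 15.7 and 7.50 TPM (0.97) and ISG15, a ubiquitin-like modifier, was lower at 25.9 and 39.4 TPM (-0.59). Their median was 0.14, and B2M was at 1238 and 972 TPM (0.35). None of 6 NF-kB targets and cytokines was called. Of 16 TGF-beta and mesenchymal genes, THBS1, a matrix glycoprotein, was lower at 11.2 and 17.6 TPM (-0.61), whereas 12 of the 16 lay above 0. With PACs listed in both libraries alone, THBS1 had a log2 ratio of -0.21 and was not called. None of 5 squamous differentiation genes was called, and all lay below 0 (median -0.11). None of the 6 epithelial markers compared was called either.

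None of 64 cytosolic ribosomal protein genes was called, and 57 of them lay below 0, with a median log2 ratio of -0.12 against 0.04 over all genes. Their summed level was 144639 TPM with l-lactate and 156659 TPM in the control. In KYSE30 41 of 64 lay below 0, with a median of -0.03. RPL6 was at 27.3 and 19.3 TPM in TE-1 (0.48), but with PACs that have a poly(A) hexamer alone its log2 ratio was -0.09. Its PAC at the end of the gene was at 13.8 and 14.7 TPM, and its coding-exon PACs have no hexamer and lie before A-rich sequence. Of 24 ribosome biogenesis genes none was called (median 0.07). None of 30 mitosis genes was called (median 0.06), of which 21 lay above 0 in TE-1 and 24 below 0 in KYSE30.

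Among genes of the nucleus, 2 of 19 nuclear noncoding RNAs were higher. LINC-PINT was at 16.9 and 4.23 TPM, with a log2 ratio of 1.77 (1.5 to 2.52), the largest of all genes compared, and MALAT1 is given above. NEAT1, the scaffold of paraspeckles, was at 832 and 750 TPM (0.15). None of 22 SR proteins and splicing kinases was called, with 18 above 0 and a median of 0.11. None of 19 histone and DNA modifiers was called either (15 above 0, median 0.10), and SUZ12, a subunit of Polycomb complex 2, was at 28.9 and 19.5 TPM (0.54). The 6 histone genes and 11 amino acid transporters compared gave no call. Of 21 autophagy and lysosome genes CTSD was the call.

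**Figure D3:**
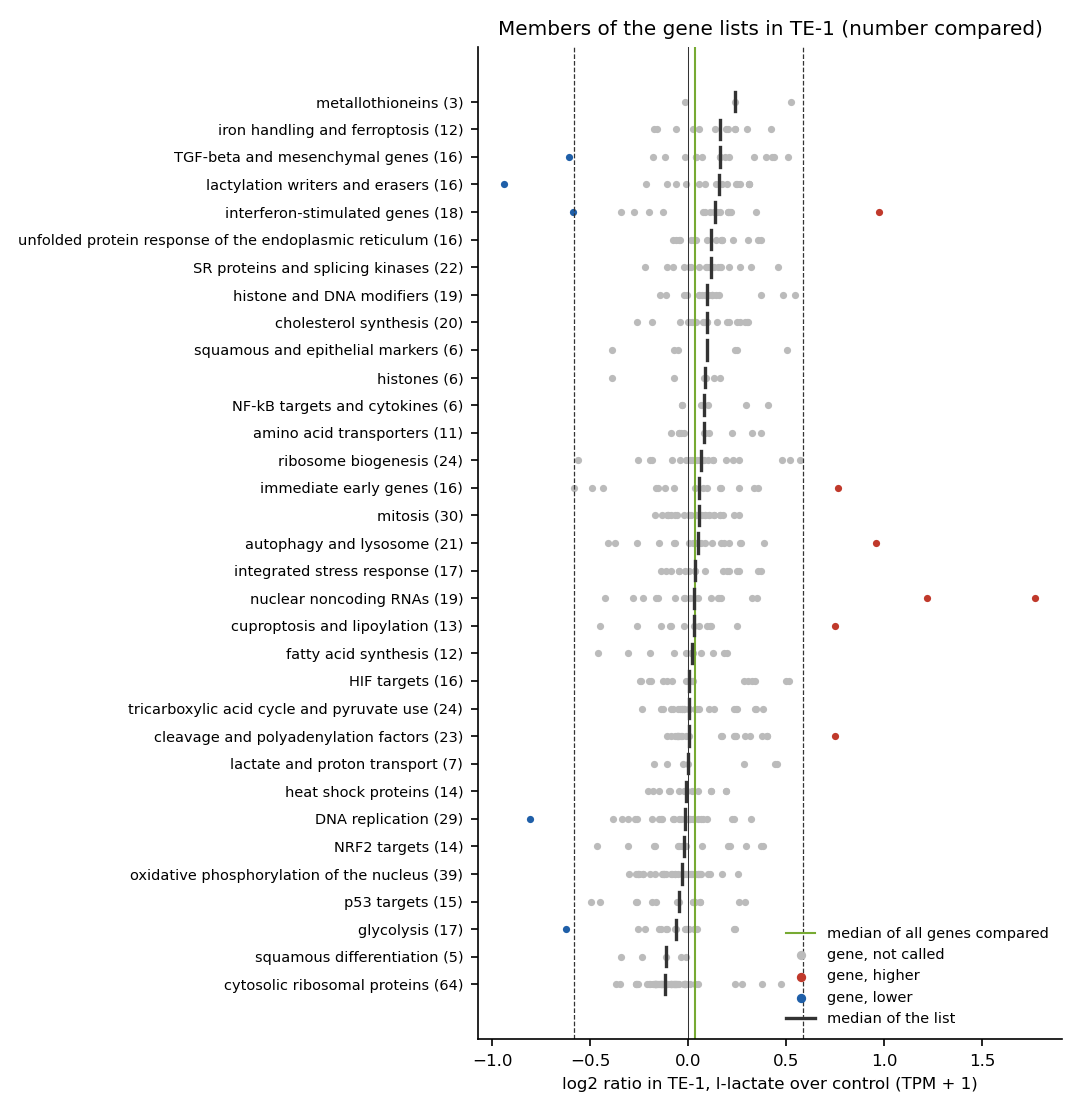
Each row is a gene list with at least 3 genes compared (number in brackets), each point a gene with its log2 ratio of l-lactate over control in TE-1, the short bar the median of the list, and the green line the median of all genes compared. Called genes are red (higher) or blue (lower), dashed lines mark 1.5-fold, and the ribosomal proteins have the lowest median.

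The level of a gene can hide unequal changes of its PACs. CPSF6 has a proximal 3′ UTR PAC that was at 246 TPM with l-lactate and 127 TPM in the control, 1.93-fold (1.80 to 2.07). Its most distal PAC was at 28.2 and 33.1 TPM, 0.853-fold (0.720 to 1.01). These proximal and distal PACs were at 143 against 98.7 TPM and at 32.8 against 37.6 TPM in KYSE30. In MALAT1 the most upstream PAC was at 331 and 109 TPM, 3.04-fold (2.84 to 3.26), while the most downstream was at 81.5 and 67.2 TPM, 1.21-fold. That upstream PAC has neither AATAAA nor ATTAAA in the 50 nt before it and is followed by A-rich sequence (7 or more A, or a run of 6, in the next 10 nt), whose part in its difference was not tested. In KYSE30 it was at 191 TPM with l-lactate and 523 TPM in the control. The last 30 nt before the main cleavage site of these CPSF6 and MALAT1 PACs are shown 5′ to 3′ on the plus strand of GRCh38, with the hexamer in capitals. Both CPSF6 sites have AATAAA, whereas in MALAT1 the most downstream site has it and the most upstream does not.
CPSF6 proximal, chr12:69269911-69269940: gtagtgttgtAATAAActgtttaatggggc
CPSF6 distal, chr12:69274324-69274353: tcttgtattgaaAATAAAacaaacttttga
MALAT1 most upstream, chr11:65499713-65499742: gggaaattagaagataaaaacatactttta
MALAT1 most downstream, chr11:65506438-65506467: attttgtgtAATAAAaatggagaagctcta

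Distal usage was measured in 1637 genes with 2 or more 3′ UTR PACs of over 5 TPM in a TE-1 library, as the share of their TPM in the most distal of these PACs. It increased by at least 10 percentage points in 102 genes (6.23%) and decreased in 85 (5.19%), and the median change was 0.29 points. The counting interval of the change left out 0 in 96 and 75 of them. Of the 102 genes, 74 could be compared in KYSE30 and 59 had the same sign there, 14 with the same call. Of the 85, 60 could be compared and 53 had the same sign, 17 with the same call. Over all 1252 genes compared in both lines, 42.6% rose and 57.4% fell in KYSE30. The share of these genes with a call in KYSE30 is not given here, so the 14 and 17 shared calls cannot be set against it. Of the 102 genes 3 were also called in level, and of the 85 genes 8. Over all 7728 genes compared in level, 1.41% were called higher and 0.763% lower.

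The largest gain of distal usage was that of GOSR2, a SNARE of the Golgi, from 56.1% in the control to 100% with l-lactate (a change of 43.9 points, 36.3 to 51.4). Its middle PAC was at 7.22 TPM in the control and not listed with l-lactate, and its distal PAC rose from 9.24 to 21.5 TPM. The middle PAC is a single site, and such PACs were never listed under 3.07 TPM with l-lactate. It was taken as absent there, and the interval leaves this limit out, so the gain could be smaller than printed. In KYSE30 the change was 16.5 points. A proximal 3′ UTR PAC of GOSR2, at 3.07 TPM with l-lactate and 4.52 TPM in the TE-1 control, was under the 5 TPM limit and not counted. The distal PAC of GOSR2 lies 25629 nt past that proximal PAC. The 3′ UTR PACs of a gene can belong to different annotated transcripts, so a change of distal usage need not be one of length within a single 3′ UTR. PNPT1, a mitochondrial exoribonuclease, went from 19.4% to 41.5% and by 28.5 points in KYSE30. DYNLT3, a dynein light chain, went from 44.3% to 69.6%, with 12.4 points in KYSE30. FCF1, a ribosome assembly factor, had its distal PAC listed only with l-lactate, at 6.85 TPM. ITSN1, an endocytic scaffold, went from 51.4% to 75.5%, and ZWILCH, a kinetochore protein, from 44.5% to 67.0%. In ITSN1 the change in KYSE30 was -1.36 points.

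The largest loss was that of ZNF721, a zinc finger gene, from 100% to 32.1% (a change of -67.9 points, -76.9 to -55.4). Its proximal 3′ UTR PAC was listed only with l-lactate in both lines, at 6.73 TPM in TE-1 and 5.02 TPM in KYSE30. Each loss named in this paragraph rests on a PAC listed in a single TE-1 library and taken as absent from the other. PACs of a single site were never listed under 3.08 TPM in the control or 3.07 TPM with l-lactate. The intervals leave this limit out, so these losses could be smaller than printed and their order could differ. IGSF3, an immunoglobulin superfamily gene, went from 100% to 57.5%. FEM1B, a substrate receptor of a ubiquitin ligase, went from 100% to 66.4%, through a proximal PAC listed only with l-lactate in both lines (5.31 and 4.46 TPM). A middle PAC of FEM1B, at 4.13 TPM with l-lactate and 2.89 TPM in the TE-1 control, was under the 5 TPM limit and not counted. In SDK1, an adhesion gene, and in TTF2 and SPRYD4, the distal PAC was listed only in the control, at 6.93, 5.48 and 5.00 TPM. Of the sites of GOSR2, PNPT1 and ZNF721 shown, the middle one of GOSR2 was lost in TE-1 and the proximal one of ZNF721 gained. The others were listed in both TE-1 libraries. The last 30 nt of each site are given 5′ to 3′ on the transcribed strand of GRCh38, with AATAAA or ATTAAA in capitals. One or the other hexamer lay in these 30 nt for 78.8% of the TE-1 PACs on assembled chromosomes.
GOSR2 middle, chr17:46941991-46942020 (+): ccaaAATAAAttcttactgtttatatccta
GOSR2 distal, chr17:46966967-46966996 (+): tgcttatttgATTAAAtgtctttgatttct
PNPT1 proximal, chr2:55636107-55636136 (-): aatataaatacattttaattatttgtacta
PNPT1 distal, chr2:55634092-55634121 (-): tctgaaatATTAAAgattaattgaaaatga
ZNF721 proximal, chr4:439991-440020 (-): atttttgaAATAAAaattgttattgtgtta
ZNF721 distal, chr4:427015-427044 (-): gtcAATAAAaccattcttttaacaaactta

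Intronic PACs were compared in 410 genes that had at least 10 TPM in both TE-1 libraries and a 3′ UTR PAC. Their share of the TPM of the gene increased by at least 10 points in 26 genes (6.34%) and decreased in 23 (5.61%). In 11 and 12 of these the intronic PACs were listed in 1 library only. Where both libraries listed them, the largest gains were those of PDE1A, a cyclic nucleotide phosphodiesterase, from 31.3% to 50.5%, and RHOT1, a GTPase of mitochondrial transport, from 17.6% to 34.8%. In PDE1A the intronic PAC was at 19.1 TPM with l-lactate and 13.7 TPM in the control and the 3′ UTR PAC at 18.8 and 29.9 TPM. In POLR3A, the largest subunit of RNA polymerase III, a PAC in the intron of a longer transcript was listed only with l-lactate, at 3.78 TPM. ARHGEF33, TTC23 and PPP1R21 likewise had intronic PACs only with l-lactate. Among the losses, the intronic PACs of P2RY11, OSBPL5, AKIRIN2 and SLC38A1 were listed only in the control, at 3.08 to 4.62 TPM. MTRES1 went from 35.5% to 17.1% and DOK1 from 28.6% to 11.8%, the latter with 14.7 points in the other direction in KYSE30.

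PACs up to 5 kb past the annotated end of a gene were compared in 220 genes. Their share increased by at least 10 points in 13 genes (5.91%) and decreased in 8 (3.64%), and in 7 and 6 of these 1 library listed no such PAC. MBD3, a subunit of the NuRD complex, went from 35% to 60.3% through a PAC that lies 1 nt past its annotated end, at 10.4 and 4.71 TPM, and had a change of -1.95 points in KYSE30. GALK1, the galactokinase, went from 37.3% to 57.3% through a PAC 125 nt past its end (13.9 and 7.22 TPM). MSRB1, AIDA, CREB3 and STRN had downstream PACs only with l-lactate, at 3.07 to 4.61 TPM. IARS2, the mitochondrial isoleucyl-tRNA synthetase, lost a PAC 1041 nt past its end that was at 4.81 TPM in the control. TOM1L1, MELK, NUFIP1 and LINC03057 lost theirs as well, and ZNF234 went from 47.4% to 35.8%.

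By region the libraries were alike. The 3′ UTR PACs held 92.6% of the listed TPM in each TE-1 library, introns 1.41% with l-lactate and 1.43% in the control, and intergenic PACs 3.17% and 3.14%. The largest difference was that of noncoding exons, -0.04 points. The share in coding exons was 0.0926% and 0.0806%, a difference of 0.01 points. The counting interval of the difference left out 0 in every region.

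PACs listed in 1 TE-1 library only were few and weak. With l-lactate 598 PACs were gained (4.02% of 14885) and 523 were lost (3.53% of 14810). The gained PACs had a median of 3.31 TPM and held 0.215% of the TPM of their library, and the lost PACs had a median of 3.37 TPM and held 0.186%. Only 43 gained and 38 lost PACs exceeded 5 TPM. The lowest TPM listed was 1.06 in each library, and 435 gained and 381 lost PACs consisted of a single site, which were never listed under 3.07 TPM, so that most of these PACs lie close to the limit of listing. In introns 74 PACs were gained (9.42%) and 68 lost (8.72%), in intergenic regions 96 (9.83%) and 70 (7.36%), and in 3′ UTRs 348 (2.89%) and 301 (2.51%).

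The highest gained PAC lay in MALAT1, at 12.3 TPM with l-lactate, at least 11.6-fold above the lowest TPM listed in the control. In KYSE30 it was listed only in the control, at 23.6 TPM. The others of the 6 highest lay in HSP90AB1 (12 TPM), RPS6 (8.03 TPM), ASIC3 (7.79 TPM), DNAH17-AS1 (7.68 TPM) and an intergenic region (7.44 TPM). The highest lost PACs lay in WSB2 (8.08 TPM), SRRD (7.79 TPM), TPM1 (7.41 TPM), GOSR2 (7.22 TPM), DPH7 (7.12 TPM) and SDK1 (6.93 TPM), all in 3′ UTRs except that of DPH7 in an intron.

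Coding exons had the highest share of gained PACs, 16 of the 82 listed with l-lactate (19.5%, 12.4% to 29.4%), against 3 of 69 lost (4.35%, 1.49% to 12%). Of the 85 coding-exon PACs in TE-1, 47 had neither hexamer upstream. These 47 summed to 617 TPM with l-lactate and 491 TPM in the control, a ratio of 1.26 (1.21 to 1.31), and the coding-exon PACs without a hexamer in KYSE30 summed to 424 and 528 TPM, a ratio of 0.803 (0.765 to 0.842). Of the 43 listed in both lines, 25 were higher in TE-1 and lower in KYSE30, 8 the reverse, 7 higher in both and 3 lower in both. Over all 13414 PACs of any region listed in both lines, 23.9% were higher in TE-1 and lower in KYSE30. Of 43 PACs listed only in the TE-1 l-lactate and KYSE30 control libraries, 10 lay in coding exons, whereas none of the 46 PACs listed only in both l-lactate libraries did.

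The largest of the 47 was a coding-exon PAC of HSP90AA1, which encodes the inducible HSP90, at 224 and 205 TPM. It was at 170 and 156 TPM in KYSE30, and so was higher with l-lactate in both lines. A further coding-exon PAC of HSP90AA1 was at 25.4 TPM with l-lactate and 2.12 TPM in the TE-1 control, and at 1.67 and 15.1 TPM in KYSE30. Coding-exon PACs of RPS24 were at 15.4 and 2.02 TPM and at 21.6 and 7.02 TPM in TE-1, and at 2.23 and 6.06 TPM and at 6.13 and 15.1 TPM in KYSE30. In HSP90AB1 2 of 3 coding-exon PACs were listed only with l-lactate in TE-1 and only in the control in KYSE30, while its 3′ UTR PAC was at 2286 and 2384 TPM. The coding-exon PACs of RPL6, HSPD1, NCL, NPM1, EIF5B, EZR, HMGB1 and SMC4 that were gained in TE-1 had the same pattern. That of SMC4 alone among these has a hexamer. A larger coding-exon PAC of EIF5B went the other way, at 5.31 and 16.1 TPM in TE-1 and at 9.06 and 7.68 TPM in KYSE30. The 30 nt around the 47 sites, from 10 nt before to 20 nt after the cleavage site, held a median of 15 A, against 7 around 3′ UTR PACs. Poly(A) capture and priming can also act on A-rich stretches inside a transcript, and their part in these differences was not tested. The sequences are shown 5′ to 3′ on the transcribed strand of GRCh38 with each A in capitals.
HSP90AA1, chr14:102083084-102083113 (-): AgAAgcAggAAgAgAAAAAAAcAAAgtttg
HSP90AB1 middle, chr6:44251115-44251144 (+): AcctttttgAgAAcAAgAAgAAAAAgAAcA
RPS24 downstream, chr10:78037236-78037265 (+): AAggAAcgcAAgAAcAgAAtgAAgAAAgtc
RPL6 upstream, chr12:112408315-112408344 (-): ttgtAggttgAAAAgAAAAAgAAggAgAAg

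**Figure D4:**
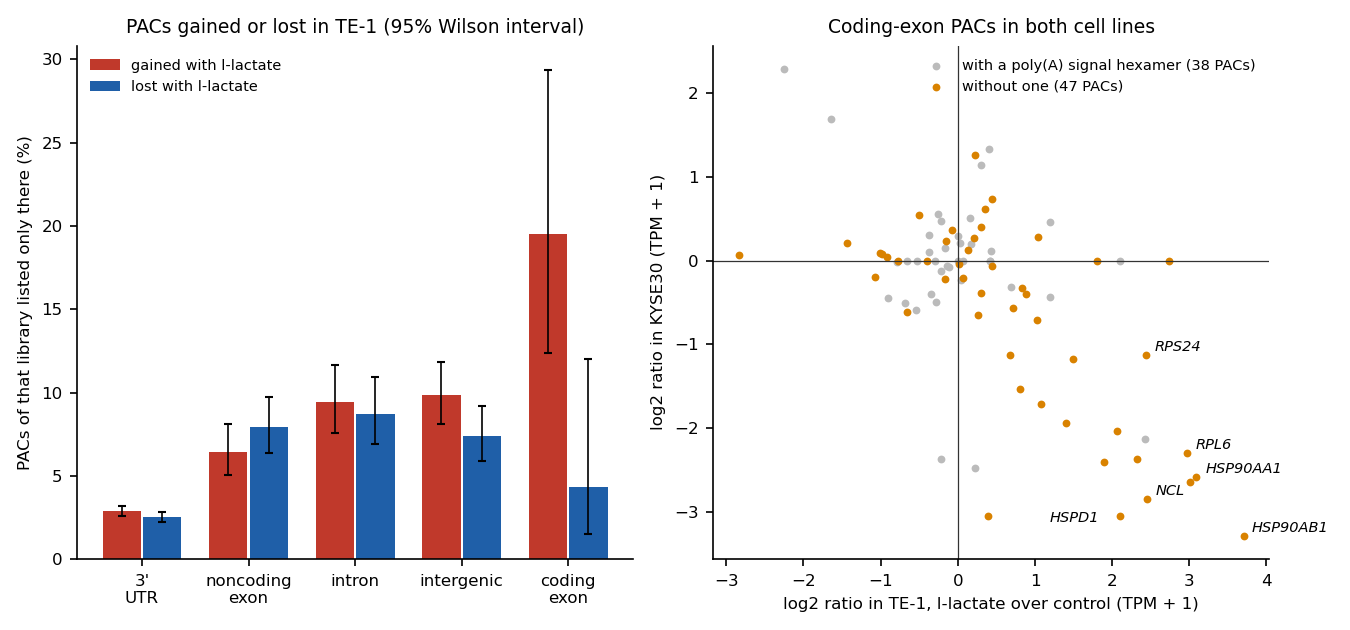
Left, share of the PACs of a TE-1 library listed only in that library, by region, with 95% Wilson intervals; coding exons reach 19.5% gained and 4.35% lost. Right, each coding-exon PAC by its log2 ratio of l-lactate over control in TE-1 (x axis) and KYSE30 (y axis), where those without a hexamer spread to the lower right.

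Within PACs, the site with the most tags moved by over 24 nt in 134 of 10769 PACs with over 5 TPM in both TE-1 libraries. The lower bound on the change in use of a site was largest in PDK3. In PDK3, a kinase that inhibits pyruvate dehydrogenase, the main site held 80.8% of 52 tags in the control, and with l-lactate a site 455 nt upstream led with 41.0% of 78 tags, so that the use of the control site fell by at least 39.7 points, counting error aside. In RIOX2, a ribosomal oxygenase, the bound was 23.4 points with a move of 325 nt upstream. SURF4, a cargo receptor, and PRKD3, a protein kinase, had bounds of 22.9 and 22.8 points with moves of 486 and 193 nt upstream. In KYSE30 the main sites of RIOX2 and SURF4 did not move, and that of PRKD3 moved 206 nt in the other direction. A pair of intergenic PACs completed the 6 largest bounds, at 22.0 and 21.3 points. The 6 moves were all upstream, whereas 79 of the 134 were downstream.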

How the data were processed

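PAS-seq tables of the TE-1 libraries, and of KYSE30 as a check, were analysed. According to the study's methods, reads trimmed with FASTX-Toolkit were mapped by HISAT2 on GRCh38, and CAGEr clustered their ends into PACs, and sites of low TPM were excluded, which sets the listing limits given above. The values deposited by the authors are RPM (written TPM), tags of a PAC scaled to library size, with no length correction. Depth was recovered from the steps between values, which were whole tags within 0.0005 TPM for 100% of values. No count test was run on single libraries.

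PACs were placed by their dominant site on GENCODE release 44, same strand, a PAC not listed being taken as 0. Of the TE-1 PACs 95.4% lay in a gene. Counting intervals are exact conditional binomial for tag ratios, Wilson for shares and Newcombe for changes of shares. Calls were tested on simulated tags with counting error alone, drawn for PACs listed in both TE-1 libraries. That simulation holds no variation between cultures and no listing limit, so it cannot show their effect on the calls. The comparison, members and gene lists were chosen with earlier results of these data known. Genes named are the 12 largest rises and falls at 20 TPM or more, up to 4 per list, up to 6 each way per usage measure, the 6 highest gained and lost PACs, the 6 largest site moves, and the 6 factors the study works on. Those called in both lines, the genes with coding-exon PACs and the marker genes were named outside this rule, after their values were seen. Some genes that this rule names are not reported here. Alternatives changed the pseudocount, minimum, fold, scaling, PACs used and call rule. The tools were pandas 2.3.3, NumPy 2.4.6, SciPy 1.17.1 and matplotlib 3.10.9 on Python 3.11.15.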

Additional observations from a re-analysis of the deposited data

Results flagged for a closer look

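ERBB3, a receptor of the epidermal growth factor family, was called in opposite directions in the lines. Its log2 ratio was 0.80 in TE-1 (11.0 TPM with l-lactate, 5.87 TPM in the control) and -0.59 in KYSE30 (63.4 and 96.3 TPM). MALAT1 likewise had log2 ratios of 1.22 in TE-1 and -1.04 in KYSE30. The summed TPM of coding-exon PACs without a hexamer had a ratio of 1.26 in TE-1 and 0.803 in KYSE30. With 1 library per condition these differences between the lines were not tested, and their cause was not tested.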

How the results depend on the processing

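The number of genes called higher and lower depended on the minimum and the fold. It was 51 and 32 with a pseudocount of 5, 237 and 143 with a minimum of 5 TPM, 41 and 22 with 20 TPM, 481 and 359 with no minimum, and 10 and 2 at 2-fold. At 20 TPM, 12 of 22 higher genes compared in KYSE30 had the same sign there (54.5%), and 7 of 7 lower genes (100%). At 2-fold this held for 5 of 7 higher genes, and no lower gene could be compared. Gained and lost PACs numbered 43 and 38 above 5 TPM, and 46 and 29 had the same pattern in KYSE30, where 43 and 21 had the opposite one. Genes with more and less distal usage numbered 12 and 12 at 20 points and 51 and 44 with PACs over 10 TPM. Those for intronic usage numbered 72 and 53 at 5 points, 17 and 11 in genes of 20 TPM, and 12 and 8 with PACs listed in both libraries. Those for downstream usage numbered 33 and 18 at 5 points, 4 and 1 in genes of 20 TPM, 8 and 3 within 1 kb, and 6 and 2 with PACs listed in both libraries. The region differences, in points, were small under every definition and changed sign in 3 cases. By number of PACs they were -0.106 for 3′ UTRs, in the opposite direction, 0.0783 for coding exons, -0.175 for noncoding exons and 0.230 for intergenic PACs. Above 5 TPM that of coding exons was 0.00752. Placed by the midpoint of the PAC they were 0.184 for 3′ UTRs, 0.00860 for coding exons and -0.0672 for noncoding exons, and, in the opposite direction, 0.00196 for introns and -0.124 for intergenic PACs. The cause was not tested where the construction of the alternative does not give it. The other 51 values stayed within the limits set for them. Of the values of the named genes, 1592 kept their state, called or not called, and most of these belong to genes that were not called. The 36 that lost a call all belong to the smaller set of called genes, 6 gained a call and 0 of the called reversed. With a pseudocount of 5, SLC2A3, ISG15 and THBS1 lost their calls, and with PACs listed in both libraries alone, SIRT3 did. Restricting genes to PACs with a hexamer (95 higher, 56 lower) or leaving out coding-exon PACs (108 and 60) were alternatives chosen after seeing the data. No paired analysis was possible because the groups compared, TE-1 with l-lactate and TE-1 control, hold 1 library each. A fit over both lines, with the line as a block, asks another question and was not run. Depth limits these results to counting error, and PACs near the listing limit cannot be told from absent ones.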
